A study of Mus musculus with 6 samples.

Results

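The heterotrimeric G protein subunits are described here in the carotid body and the adrenal medulla of the mouse. Members were the rows of the deposited table named for an alpha, beta or gamma subunit, with the stimulatory alpha gene Gnas not included, and there were 32 of them among 26728 entries: 15 alpha, 5 beta and 12 gamma genes. The carotid body is a small organ at the carotid bifurcation that senses blood oxygen, while the medulla of the adrenal gland releases catecholamines into the blood. Both groups were untreated adult C57/BL6 mice with no transgene or deletion named in the labels. Each group had 3 libraries, and each library was 1 pool drawn from 10 mice, holding 18 carotid bodies (CB1, CB2 and CB3) or 10 adrenal medullas (AM1, AM2 and AM3). Values given in threes below follow that order of pools. The series compared the transcripts of these related organs, and sequencing was of whole tissue.

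A heterotrimeric G protein couples a receptor in the membrane to enzymes and channels inside the cell. The alpha subunit binds GTP when the receptor is activated and parts from the beta-gamma pair, and both then act on effectors. Alpha subunits are grouped in classes: several subunits of the Gi/o class lower cyclic AMP, Golf raises it, and the Gq/11 class activates phospholipase C beta. The G12/13 class is a further group. The beta subunit stays bound to a gamma subunit, which is anchored to the membrane by a lipid on its tail. Carotid body glomus cells and adrenal chromaffin cells both receive transmitters and hormones through receptors of this kind.

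Depth was 13266225 to 16445925 reads per library. Levels are in RPKM, reads scaled to mRNA length and to the reads of the library summed over all entries. Genes are compared per length on this scale. RNA was amplified before fragmentation, and the effect of that on comparisons between genes was not tested. At an mRNA length of 2 kb, 1 read was worth 0.0304 to 0.0377 RPKM, and such limits cover counting error only, since amplified reads carry no molecular identifiers. Across genes, correlations were 0.930 to 0.979 within a tissue and 0.826 to 0.859 between the tissues, and the chi-square per gene between pools of a tissue, 39.6 to 149, was above sampling noise. A pair of libraries stood apart. AM3 held 7 reads over 4 Y-linked genes, against 1292 to 3277 in the other libraries. CB2 had a summed RPKM of 3641 over 7 adipocyte markers, against 391 and 881 in the other carotid body pools, and AM3 had 2223 against 229 and 715. Most of the AM3 sum was Cfd, at 1641 RPKM against 275 and 11.6 in AM1 and AM2. Adipoq was at 79.8 RPKM in AM3 and 68.0 in AM1, and Plin1 at 5.53 and 4.15. In CB2 Adipoq was at 338 RPKM, against 26.7 and 53.0 in CB1 and CB3. Results that change without CB2 or AM3 are given both ways.

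Most of the subunit genes were transcribed in both tissues. Of 29 members tested, 5 were higher in the carotid body (Gng8, Gnal, Gng11, Gna15 and Gnai2) and 4 were higher in the adrenal medulla (Gnat2, Gna14, Gng4 and Gnb3). Over all 13357 genes tested, limma called 14.2% for the carotid body and 7.73% for the adrenal medulla at an adjusted p under 0.05, or 21.9% in either direction, against 31.0% of the tested members. The pools of the tissues did not overlap for 15 of the 29, 10 with the carotid body above and 5 with the adrenal medulla above, where the background over all genes was 37.0%. The median log2 difference, carotid body minus adrenal medulla on the log2(RPKM + 1) scale, was 0.46 over the tested members and 0.02 over all tested genes. With CB2 and AM3 left out, the calls numbered 7 for the carotid body and 4 for the adrenal medulla. That fit called 29.9% of all genes, 1928 for the carotid body and 2067 for the adrenal medulla. Without CB1, CB3, AM1 or AM2 alone, 3 members were called for the carotid body. Without CB1 alone 2 were called for the adrenal medulla. Those fits without 1 library called 16.3% to 18.4% of all genes.

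The filter needs a remark for 3 of these genes. Gng8 and Gna15 passed it only through the carotid body and Gnat2 only through the adrenal medulla, so these had to differ. Their reads are therefore given with their levels. The untested members were Gnat1, Gnat3 and Gng13. Gnat1, the transducin alpha subunit of rods, had 0 reads in every library, which allows up to 0.0821 to 0.102 RPKM (3 reads). Gnat3, the gustducin alpha subunit of taste cells, had 1 read in CB2 and 1 in AM1. Gng13, a gamma subunit of taste and olfactory cells, had 1 to 3 reads in each library.

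**Figure D1:**
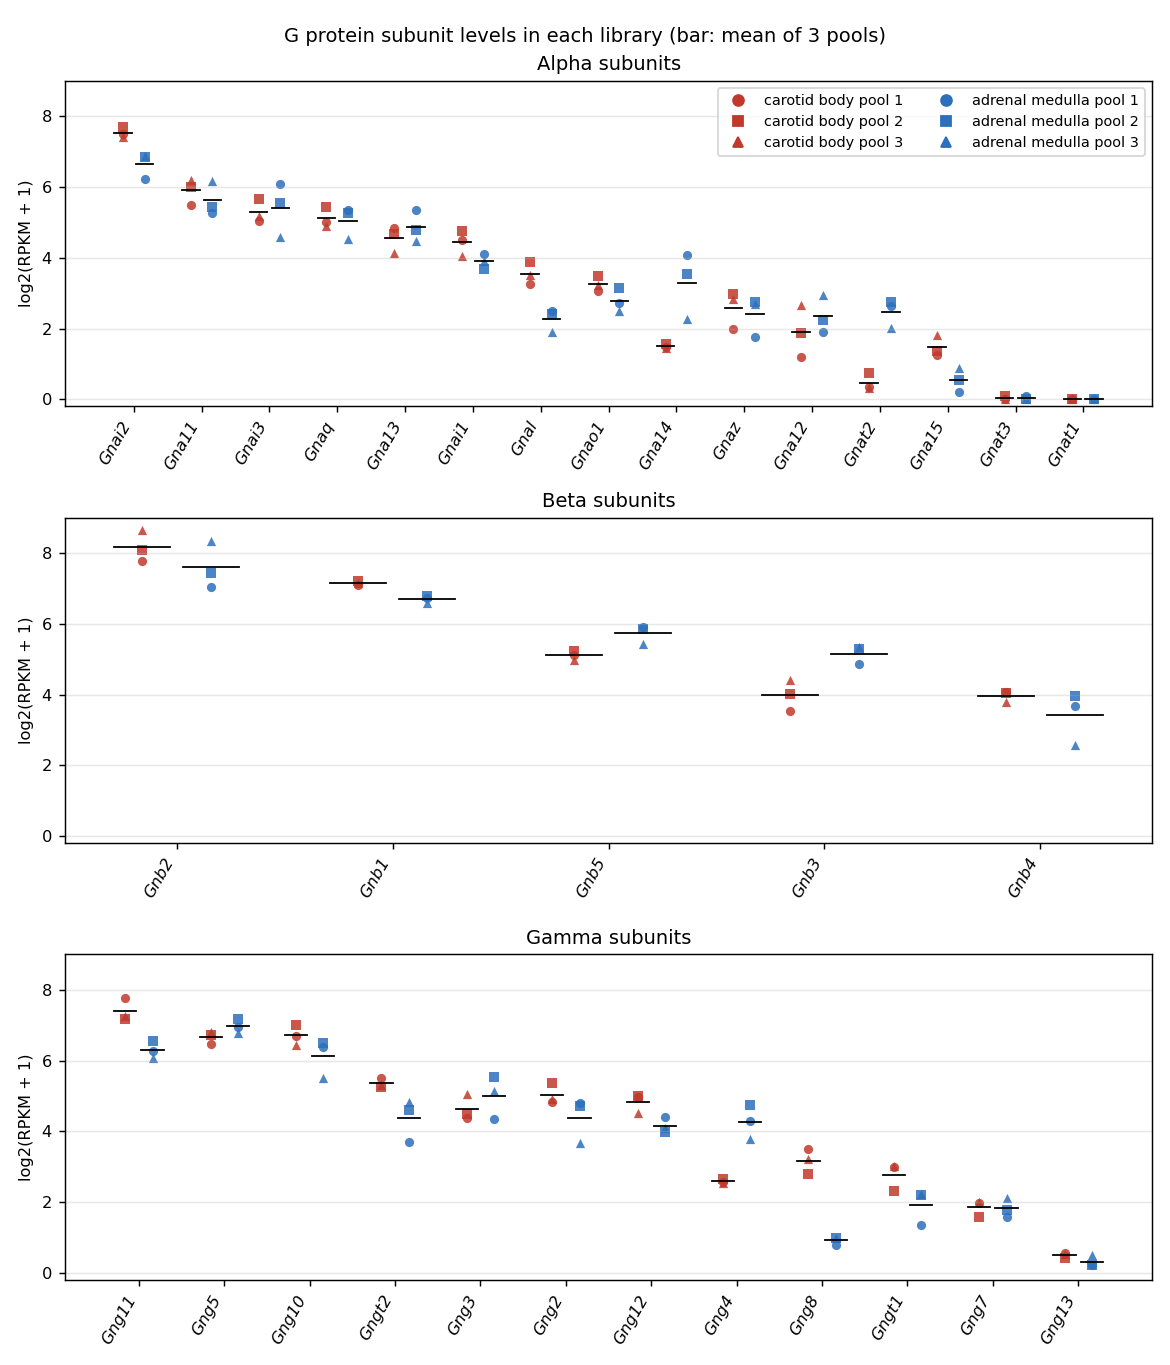
Level of each of the 32 subunit genes in each of the 6 pools, as log2(RPKM + 1), in 3 panels for alpha, beta and gamma subunits; points are pools and bars are means of 3 pools. Gnai2, Gnb2 and Gng11 lead the carotid body panels, and Gng8, Gnat2, Gng4 and Gnal show groups that do not overlap.

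**Figure D2:**
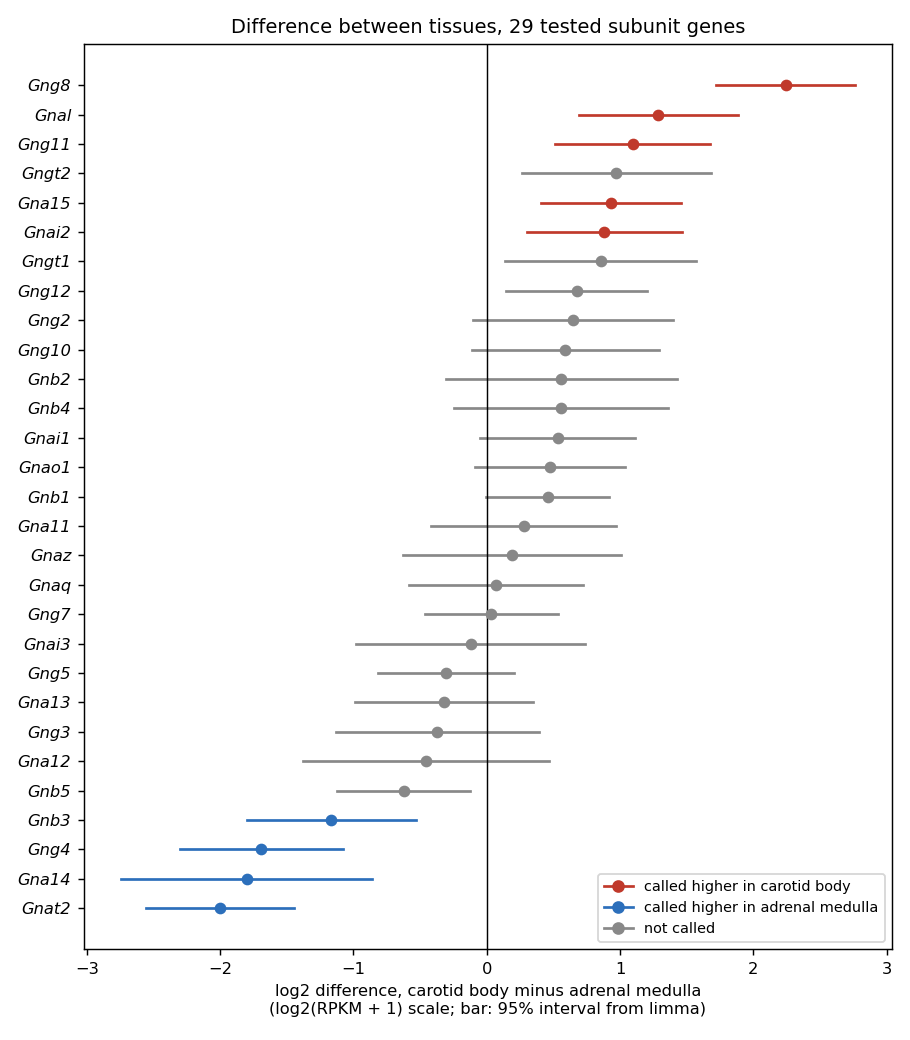
Log2 difference between tissues (carotid body minus adrenal medulla, log2(RPKM + 1) scale) for the 29 tested subunit genes, with the 95% interval from limma. Colour marks the 5 genes called higher in the carotid body and the 4 called higher in the adrenal medulla, with Gng8 at the top and Gnat2 at the bottom.

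Cell type markers differed between the tissues. Of the markers tested, limma called 11 of 11 glial, 10 of 10 fibroblast, 11 of 12 smooth muscle and pericyte, 9 of 12 endothelial and 5 of 6 platelet and red cell markers higher in the carotid body. Their summed RPKM, carotid body against adrenal medulla, was 615 to 781 against 130 to 146 for glia and 2458 to 3150 against 77.1 to 188 for fibroblasts. It was 1468 to 2275 against 127 to 170 for smooth muscle and pericytes and 554 to 662 against 233 to 273 for endothelium. For platelets and red cells it was 2771 to 8424 against 1239 to 2882. Leukocyte markers summed to 639 to 876 against 353 to 706 with 2 of 10 called higher in the carotid body, and neuronal markers to 1273 to 1494 against 723 to 995 with 4 of 12.

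The adrenal medulla pools carried cortex transcripts: 10 of 10 cortex markers were higher there, and their summed RPKM was 11430 to 15980 against 25.7 to 130. Markers of chromaffin and glomus cells summed to 17440 to 29050 against 2605 to 3495, with 7 of 11 higher in the adrenal medulla and 1, Ddc, higher in the carotid body. Th, the first enzyme of catecholamine synthesis, was present in every library, at 434 to 646 RPKM in the carotid body and 887 to 2489 in the adrenal medulla. Values of 0 among the markers were those of the cortex gene Cyp11b2 in CB2 and CB3 and of the brown fat gene Ucp1 in CB1 and AM1. The part of any of these cell types in the subunit results was not tested. In such whole-tissue libraries fewer cells of a type and less RNA per cell cannot be told apart.

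Among the Gi/o alpha subunits, Gnai2 was higher in the carotid body, Gnat2 was higher in the adrenal medulla, and the other 4 tested members were not called. Gnai2, the widely expressed inhibitor of adenylyl cyclase, had the highest mean level of the 15 alpha genes in both tissues. It stood at 179, 208 and 171 RPKM in CB1, CB2 and CB3 and at 74.2, 116 and 118 RPKM in AM1, AM2 and AM3. All carotid body pools lay above all adrenal medulla pools, and AM1 was the lowest. The log2 difference was 0.88 ± 0.25 (SE, n = 3 pools each; limma adjusted p = 0.0387). The call was lost in several alternatives, where limma's adjusted p was 0.0920, 0.106 and 0.0891 without CB1, CB2 and CB3, 0.127 and 0.0796 without AM1 and AM2, and 0.0644 under median-ratio scaling.

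Gnat2 encodes the transducin alpha subunit of cone photoreceptors. Its level was 0.269, 0.672 and 0.2503 RPKM in the carotid body and 5.26, 5.73 and 3.01 RPKM in the adrenal medulla, or 30 against 363 reads over 3 pools. Every adrenal medulla pool was above 3 RPKM while no carotid body pool reached 1. This gave a log2 difference of -2.00 ± 0.24 (SE; limma adjusted p = 0.000530), -3.31 with a pseudocount of 0.1 in place of 1 and -3.59 with limma voom on the recovered reads.

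The other Gi/o genes sat closer together. Gnai3 was at 31.9, 49.3 and 35.4 RPKM in the carotid body and spread from 23.2 to 66.9 RPKM in the adrenal medulla, with a log2 difference of -0.12 (95% interval -0.98 to 0.74). Gnai1 had 21.7, 26.3 and 15.4 RPKM against 16.4, 11.8 and 14.2 RPKM, and the interval of its log2 difference ran from -0.05 to 1.11. For Gnao1, the alpha subunit of neurons and endocrine cells, the values were 7.43, 10.1 and 8.43 RPKM against 5.55, 7.93 and 4.62 RPKM (interval -0.09 to 1.04). Gnaz, a Gi relative of neurons and platelets, had 2.97, 6.81 and 6.12 RPKM against 2.38, 5.78 and 5.52 RPKM (interval -0.63 to 1.01). The groups of each of these 4 genes overlapped.

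The coding ends of some alpha genes carry the residue that pertussis toxin modifies, a cysteine at the fourth place from the end. The last 18 coding bases, stop codon included, were read from GENCODE M21 transcripts (GRCm38) matched to the accessions of each row. All 14 alpha genes looked up had a match, and Gnal was not among those looked up. They are shown 5′ to 3′ for the called genes of the Gi/o and Gq/11 classes and their nearest relatives, with the fourth-last codon in capitals.
Gnai2: gacTGTggcctcttctga
Gnat2: gacTGTgggctcttttaa
Gnai3: gaaTGTgggctttattga
Gnaz: tacATCggcctttgctga
Gna14: gagTTCaacttggtgtaa
Gna15: gagATCaacctgctgtga
Gnaq: gagTACaatctggtctaa
Gna11: gagTACaacctggtgtga
The fourth-last codon was cysteine in 7 alpha genes (Gnai1, Gnai2, Gnai3, Gnao1, Gnat1, Gnat2 and Gnat3), so Gnai2 and Gnat2 share it although their calls lay in opposite directions. Gnaz has isoleucine there. The accessions of Gnao1 had 2 different coding ends, both with cysteine at that place, and the deposited row merges them, so these isoforms could not be told apart. In all, 8 of the 32 rows merge several accessions.

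Gnal was higher in the carotid body. It encodes the Golf alpha subunit, which stimulates adenylyl cyclase in olfactory neurons and in the striatum. The carotid body pools held 8.51, 13.7 and 10.47 RPKM and the adrenal medulla pools 4.63, 4.27 and 2.71 RPKM. The lowest carotid body pool was above the highest adrenal medulla pool. Golf alpha differed by log2 1.29 ± 0.26 (SE, n = 3 each; limma adjusted p = 0.00765), and the gene was called in each of the 13 alternatives. In the GRCm38 annotation 7.63% of the exonic bases of Gnal overlap Mppe1 on the other strand, and strand use in the counting is not given in the sources used here.

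Within the Gq/11 class the abundant members did not pass the test, and the scarcer ones were called in opposite directions. Gna11 had 44.5, 63.7 and 72.9 RPKM in the carotid body and 37.9, 42.7 and 70.9 RPKM in the adrenal medulla (log2 difference 0.28, 95% interval -0.41 to 0.97). Gnaq had 31.5, 42.5 and 28.6 RPKM against 40.3, 37.2 and 22.0 RPKM (0.07, interval -0.58 to 0.72). Both genes are transcribed in most tissues, and for both the groups overlapped.

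Gna14, a Gq relative with a more restricted distribution, was higher in the adrenal medulla. It was at 1.79, 1.94 and 1.75 RPKM in the carotid body and at 15.9, 10.8 and 3.81 RPKM in the adrenal medulla. The carotid body pools were tightly grouped, while AM1 and AM3 lay far apart. A log2 difference of -1.80 ± 0.41 resulted (SE; limma adjusted p = 0.0142), and the adjusted p became 0.0565 without CB1. Gna15, the Gq relative of blood-forming cells, went the other way at a low level, with 1.40, 1.57 and 2.54 RPKM in the carotid body and 0.151, 0.461 and 0.862 RPKM in the adrenal medulla (159 against 45 reads). Its log2 difference was 0.93 ± 0.23 (SE; limma adjusted p = 0.0197), 1.87 with a pseudocount of 0.1 and 2.08 with limma voom on the recovered reads. The adjusted p of Gna15 was 0.0627 without CB3, 0.0666 and 0.0620 without AM1 and AM2, and 0.0764 after quantile normalization.

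Neither gene of the G12/13 class was called. Gna13 had 27.9, 24.3 and 16.7 RPKM against 39.5, 26.6 and 21.5 RPKM in the adrenal medulla (log2 difference -0.32, 95% interval -0.98 to 0.35). Gna12 was at 1.28, 2.65 and 5.36 RPKM against 2.77, 3.69 and 6.76 RPKM (-0.46, interval -1.38 to 0.46). Pool 3 of each tissue was the highest for Gna12 and the lowest for Gna13.

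As a share of the summed RPKM of the 15 alpha genes, Gi/o was above in every carotid body pool. The Gi/o share was 67.5%, 66.7% and 63.1% in the carotid body pools and 54.8%, 60.5% and 56.7% in the adrenal medulla pools, or 65.8% ± 2.34 against 57.3% ± 2.93 (SD, n = 3 each). Gnai2 by itself made up 47.2% ± 2.20 of the carotid body sum and 33.2% ± 8.35 of the adrenal medulla sum, where pool 1 had 23.8% and pool 3 had 39.6%. The Golf share was 2.73% ± 0.334 against 1.25% ± 0.298. The Gq/11 share was 24.8% ± 3.13 against 30.6% ± 2.15 and that of G12/13 was 6.65% ± 1.26 against 10.9% ± 2.33, both with the adrenal medulla pools above. These shares are a description without a test, and they leave out Gs.

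**Figure D3:**
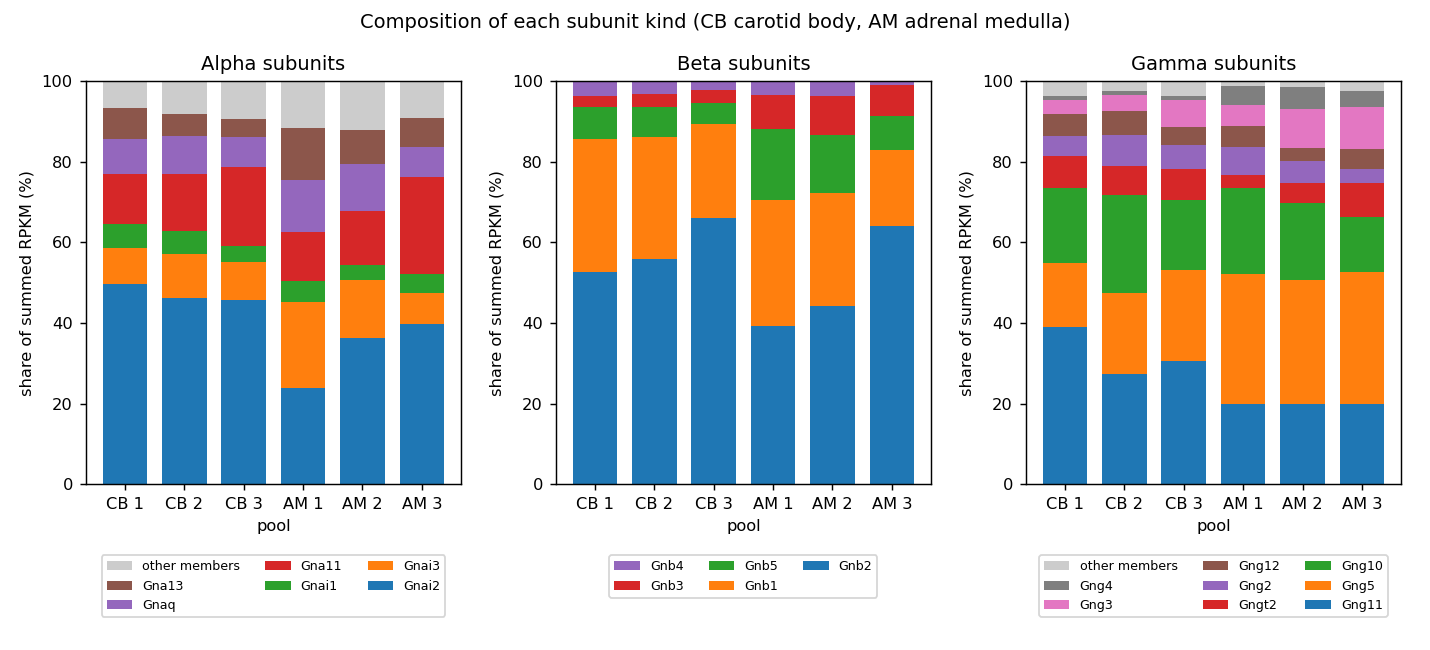
Share of each gene in the summed RPKM of its subunit kind (percent), in each carotid body (CB) and adrenal medulla (AM) pool, for alpha, beta and gamma subunits. Gnai2 takes 45.7% to 49.7% of the carotid body alpha sum and 23.8% to 39.6% of the adrenal medulla sum, and Gng11 takes 27.4% to 39.0% and 19.8% to 20.0% of the gamma sum.

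The beta subunits were dominated by Gnb2 and Gnb1 in both tissues, and Gnb3 was the called member, higher in the adrenal medulla. Gnb3 is the beta subunit of cone photoreceptors and is also found in taste cells. Its pools held 10.6, 15.1 and 20.4 RPKM in the carotid body and 27.9, 38.0 and 39.3 RPKM in the adrenal medulla. In each tissue pool 1 was the lowest and pool 3 the highest, and the groups did not overlap. Gnb3 had a log2 difference of -1.17 ± 0.28 (SE, n = 3 each; limma adjusted p = 0.0167). The adjusted p was 0.0609 without CB1, 0.0681 without AM2 and 0.0582 without CB2 and AM3.

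Gnb5, an outlying beta subunit that pairs with RGS proteins of the R7 family in place of a gamma subunit, had 33.5, 36.4 and 30.6 RPKM in the carotid body and 58.7, 56.8 and 42.2 RPKM in the adrenal medulla. Its groups did not overlap, but it missed the threshold with a log2 difference of -0.62 ± 0.22 (SE; limma adjusted p = 0.0800). The adjusted p was 0.0449 with the pool number as a block, 0.0394 under median-ratio scaling, 0.0249 without AM3 and 0.0233 without that pool and CB2. An antisense transcript covers 10.6% of the exonic bases of Gnb5 in GRCm38.

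The major beta genes were not called. Gnb1 was the steadiest, with 137, 146 and 142 RPKM against 104, 110 and 95.3 RPKM, groups that did not overlap and a log2 difference of 0.46 (95% interval -0.0033 to 0.92; limma adjusted p = 0.158). Gnb2 varied within each tissue, from 219 to 400 RPKM in the carotid body and from 131 to 325 RPKM in the adrenal medulla, with pool 1 lowest and pool 3 highest in both. Gnb4 was at 15.7, 15.6 and 12.9 RPKM against 11.9, 14.7 and 4.995 RPKM. Together Gnb1 and Gnb2 made up 87.1% ± 2.07 of the beta sum of carotid body pools and 75.2% ± 6.77 of that of adrenal medulla pools (SD, n = 3 each). The remainder differed most for Gnb3, at 3.02% ± 0.420 against 8.60% ± 0.980, and Gnb5, at 6.87% ± 1.60 against 13.5% ± 4.72.

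Gamma subunits differ in the lipid on their tail, which the last coded residue sets: serine takes a farnesyl group and leucine a geranylgeranyl group. The coding ends below, from the same GENCODE M21 transcripts, were found for all 12 gamma genes and are shown for the called genes, the other genes that code for serine, and Gng5 as an abundant leucine example. The capitals mark the last 4 codons, from the cysteine that carries the lipid to the final residue.
Gng11: agcTGTGTCATTTCAtaa
Gngt1: ggcTGTGTGATTTCAtag
Gngt2: actTGTGTGCTAAGCtga
Gng8: tttTGCACCCTGCTCtga
Gng4: ttcTGCACCATCCTCtaa
Gng5: gtcTGCTCCTTTTTGtag
Serine was the last residue in 3 genes (Gng11, Gngt1 and Gngt2) and leucine in the other 9.

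The pools of the tissues did not overlap for any of the 3 serine genes, with the carotid body above in each, where 37.0% of all tested genes did not overlap in either direction, and Gng11 alone passed the test. Gng11, a broadly expressed farnesylated gamma subunit, was the most abundant gamma gene of the carotid body, at 217, 143 and 151 RPKM against 76.9, 92.7 and 65.6 RPKM in the adrenal medulla. CB1 stood above the others. The log2 difference was 1.10 ± 0.25 (SE, n = 3 each; limma adjusted p = 0.0150), and the adjusted p was 0.0545 without CB1.

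Gngt2, the gamma subunit of cones, had 44.7, 36.8 and 38.4 RPKM in the carotid body and 11.9, 23.4 and 27.5 RPKM in the adrenal medulla. Its log2 difference was 0.97 ± 0.31 (SE; limma adjusted p = 0.0564). The adjusted p was 0.0496 with the pool block, 0.0183 without AM3 and 0.0358 without that pool and CB2. Gngt1, the gamma subunit of rods, had 7.01, 3.91 and 7.14 RPKM against 1.55, 3.56 and 3.66 RPKM (0.85 ± 0.31; limma adjusted p = 0.0923, and 0.0297 without CB2 and AM3). CB2 lay just above the highest adrenal medulla pool for Gngt1.

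Summed, the serine genes made up 48.3%, 35.2% and 39.8% of gamma RPKM in the carotid body pools and 23.5%, 25.6% and 29.4% in the adrenal medulla pools, or 41.1% ± 6.67 against 26.2% ± 2.99 (SD, n = 3 each). Gng11 carried most of that share, at 32.3% ± 6.01 against 19.9% ± 0.103. Grouping by the last residue was chosen with the levels known, and it is given as a description without a test.

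Of the leucine genes, Gng8 was higher in the carotid body and Gng4 was higher in the adrenal medulla. Gng8, a gamma subunit first described in olfactory and vomeronasal neurons, had 10.3, 5.98 and 8.24 RPKM in the carotid body and 0.728, 0.990 and 0.991 RPKM in the adrenal medulla, or 328 against 37 reads. All carotid body pools were several-fold above all adrenal medulla pools. The log2 difference was 2.24 ± 0.23 (SE, n = 3 each; limma adjusted p = 0.000200), and the mean levels differed 9.04-fold.

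Gng4, a gamma subunit of neurons, had 4.91, 5.27 and 4.83 RPKM in the carotid body and 18.6, 25.7 and 12.9 RPKM in the adrenal medulla. The carotid body pools were close together and below every adrenal medulla pool. The log2 difference was -1.69 ± 0.27 (SE; limma adjusted p = 0.00211), and Gng4 was called in each of the 13 alternatives. Gng3, another gamma subunit of neurons, was not called, at 19.9, 21.4 and 31.9 RPKM against 19.5, 45.2 and 34.4 RPKM (-0.37, 95% interval -1.13 to 0.39). The ratio of Gng3 to Gng4 was 4.05, 4.07 and 6.61 in the carotid body and 1.05, 1.76 and 2.67 in the adrenal medulla.

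Gng5 was the most abundant gamma gene of the adrenal medulla and was not called, at 87.6, 105 and 111 RPKM against 124, 144 and 108 RPKM (log2 difference -0.30, 95% interval -0.81 to 0.21). The ratio of Gng11 to Gng5 was 2.47, 1.36 and 1.36 in the carotid body and 0.622, 0.642 and 0.608 in the adrenal medulla, so the leading gamma gene of every carotid body pool was Gng11 and that of every adrenal medulla pool was Gng5. Gng10 was at 103, 127 and 86.1 RPKM against 82.1, 89.0 and 44.6 RPKM (0.59, interval -0.11 to 1.29). That value is uncertain, since 79.4% of the exonic bases of Gng10 are shared with Gm20503 on the same strand in GRCm38. Whether the counting split reads of Gnb1, Gng2 or Gng5 with any pseudogene copies was not tested. Genes on the other strand overlap 24.2% of the exonic bases of Gng3 (Bscl2), 20.4% of Gng2 (Gm48283), 51.4% of Gng13 (Chtf18) and 7.30% of Gngt2 (Abi3), whose reads cannot be told apart where strand was not used.

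The remaining gamma genes were not called. Gng12 had 30.1, 31.2 and 22.1 RPKM against 20.3, 14.9 and 15.9 RPKM, groups that did not overlap (0.67 ± 0.23; limma adjusted p = 0.0749, and 0.0461 with the pool block). Gng2, a gamma subunit abundant in brain, had 27.4, 40.1 and 29.4 RPKM against 26.7, 25.0 and 11.8 RPKM (0.65, 95% interval -0.10 to 1.40), also without overlap. Gng7, the partner of Golf in the striatum, had 2.92, 2.00 and 3.00 RPKM against 1.98, 2.41 and 3.30 RPKM, with a difference of 0.04 (interval -0.47 to 0.54) that turned to -0.0037 under median-ratio scaling and -0.12 after quantile normalization. While Gnal was called, Gng7 overlapped between the tissues; whether their differences differ was not tested.

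Several subunit genes lie next to each other in the mouse genome, as copies of a shared ancestor. In the RefSeq annotation of GRCm38.p6 no other protein-coding gene stood between Gna15 and Gna11, Gnaq and Gna14, Gnat2 and Gnai3, Gnat3 and Gnai1, or Gngt1 and Gng11, and 1 stood between Gnai2 and Gnat1. In the first 3 of these pairs the scarcer gene was called and its abundant neighbour was not: Gna15 beside Gna11, Gna14 beside Gnaq, and Gnat2 beside Gnai3. Gna15 and Gnat2 passed the filter only through the tissue where they were high, so they had to differ, and Gna14 alone was free of this. In the pair of Gngt1 and Gng11, the abundant Gng11 was called and its scarcer neighbour Gngt1 was not, though both had the carotid body pools above. Gnat3 and Gnat1 had at most 1 read in any library beside the well-read Gnai1, which was not called, and Gnai2, which was. The difference between neighbours was not itself tested.

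The effectors and regulators of these subunits were followed through 46 genes, of which 45 were in the table and 32 were tested. Limma called 5 higher in the carotid body (Adcy4, Rgs7bp, Arrb1, Gpsm2 and Adcy5) and 2 higher in the adrenal medulla (Rgs11 and Rgs7), or 21.9% of those tested against the 21.9% of all genes, so the count was at the background. With the pool number as a block 8 were higher in the carotid body. With a pseudocount of 0.1 the number was 3, and without single libraries it was 2 to 5, with 2 without CB1, CB3 or AM2 and 3 without CB2. In the adrenal medulla 5 were higher after quantile normalization and 5 without CB2 and AM3. Calls over all genes moved as well. For the adrenal medulla they numbered 1033 in the main fit, 1386 after quantile normalization and 2067 without CB2 and AM3. For the carotid body they numbered 1896 in the main fit, 2257 with the block and 1849 with a pseudocount of 0.1. The median log2 difference of the 32 was 0.27, against 0.02 for all genes.

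Gnb5 works with the R7 RGS proteins, which speed GTP hydrolysis by Gi/o alpha subunits, and this group was split. Rgs7 had 2.92, 7.02 and 3.54 RPKM in the carotid body and 16.8, 12.1 and 11.4 RPKM in the adrenal medulla (-1.45 ± 0.31; limma adjusted p = 0.0101). Rgs11 had 0.309, 0.338 and 0.608 RPKM against 3.12, 4.05 and 2.64 RPKM (-1.58 ± 0.19; adjusted p = 0.000478), and it passed the filter only through the adrenal medulla, so it had to differ. Both lay on the side where Gnb5 was above, while the membrane anchor of the R7 proteins lay on the other. Rgs7bp, that anchor, had 11.4, 9.74 and 12.1 RPKM in the carotid body and 2.57, 2.14 and 1.35 RPKM in the adrenal medulla (2.02 ± 0.23; adjusted p = 0.000389). Rgs6, Rgs9 and Rgs9bp were too low to test, and Rgs9, an R7 protein of retina and striatum, reached at most 1.19 RPKM in any pool. Rgs7 and Rgs7bp were called in each of the 13 alternatives.

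**Figure D4:**
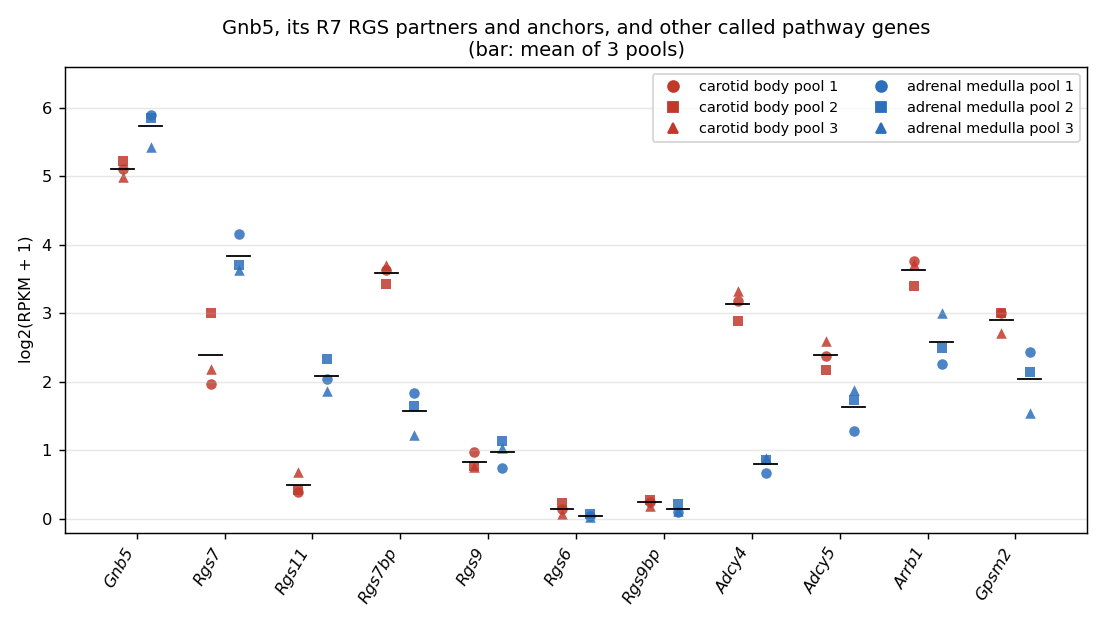
Levels, as log2(RPKM + 1), of Gnb5, of its R7 RGS partners with their anchors, and of the other called effector and regulator genes in each of the 6 pools; points are pools and bars are means of 3 pools. Gnb5, Rgs7 and Rgs11 have the adrenal medulla pools above, and Rgs7bp, Adcy4, Adcy5, Arrb1 and Gpsm2 have the carotid body pools above.

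Of the adenylyl cyclases, which Golf stimulates and several Gi/o subunits inhibit, 2 of 7 tested genes passed, both with the carotid body higher. Over all 13357 genes tested, 14.2% were called for the carotid body and 21.9% in either direction. Adcy4, a cyclase that beta-gamma pairs can stimulate, had 8.08, 6.40 and 8.99 RPKM against 0.589, 0.821 and 0.855 RPKM (2.32 ± 0.20; limma adjusted p = 8.86e-05) and passed the filter only through the carotid body, so it had to differ. Adcy5, the main striatal cyclase and a partner of Golf there, had 4.22, 3.53 and 5.06 RPKM against 1.44, 2.33 and 2.68 RPKM (0.75 ± 0.23; adjusted p = 0.0467). Adcy5 was called in 4 of the 13 alternatives, and leaving out any of CB1, CB2, CB3, AM1 or AM2 gave an adjusted p of 0.0623 to 0.162. Adcy3, the cyclase that Golf drives in olfactory neurons, was not called, with 2.35, 3.86 and 3.23 RPKM against 4.74, 5.45 and 5.30 RPKM (-0.59; adjusted p = 0.0908).

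The phospholipase and potassium channel lists held no called gene. None of 3 tested phospholipase C beta genes, the effectors of Gq/11, passed the test. Plcb1, the nearest, had 4.41, 5.11 and 2.83 RPKM against 17.1, 10.2 and 5.92 RPKM (-1.16; limma adjusted p = 0.0527), and for Plcb1 as for Gna14 AM1 was the highest adrenal medulla pool and AM3 the lowest. The 4 GIRK potassium channel genes, opened by beta-gamma pairs, were all too low to test, with a summed level of 0.729 to 1.06 RPKM in the carotid body and 0.427 to 2.34 RPKM in the adrenal medulla.

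Among 8 receptor kinases and arrestins, Arrb1 was the called gene. Arrb1 encodes an arrestin that uncouples receptors from G proteins, and it had 12.6, 9.60 and 12.2 RPKM against 3.81, 4.63 and 7.03 RPKM (1.05 ± 0.26; limma adjusted p = 0.0188). The adjusted p of Arrb1 lay between 0.0615 and 0.0755 without CB1, CB3, AM1 or AM2. Among 8 tested chaperones and regulators that act without a receptor, Gpsm2, which binds GDP-loaded Gi alpha subunits, was at 7.05, 7.001 and 5.54 RPKM against 4.41, 3.41 and 1.92 RPKM (0.86 ± 0.27; adjusted p = 0.0499). Gpsm2 was called in 5 of the 13 alternatives, and without any single pool other than AM1 its adjusted p was 0.0734 to 0.143. Pdc, the phosducin of photoreceptors that binds beta-gamma pairs, was at 0 in all 6 libraries.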

How the data were processed

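Bowtie 0.9.8 and the mouse build mm9 are named in the submitters' processing notes. Per the labels' protocols, RNA was amplified before fragmentation and library construction. The deposited table holds RPKM computed by the authors. RPKM times the listed mRNA length, divided by what 1 read is worth in that library, gave whole reads, within 0.01, for 106276 of 106276 values above 0. A further 3217 entries list no length and were left out. Symbols are those of the table, and mm9 coordinates were not used here.

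Log2(RPKM + 1) was tested with limma 3.58.1 in R 4.3.3 (variance trend, tissue as the only term, two-sided) over the 13357 genes with at least 1 RPKM in at least 3 libraries, with Benjamini-Hochberg adjustment over all of them, and called at an adjusted p under 0.05. The only spread behind these p-values is that between pools, and limma draws each gene's variance toward the trend over all genes. For the steady Gnb1 the limma SE was 0.20, with a log2 SD within tissue of 0.0783. The whole table was fitted, and the fit was tested on simulated data. The simulation gave all genes the same dispersion and made the pools independent. It therefore cannot show how the fit behaves with the uneven spread of these pools. Members, lists and alternatives were chosen with earlier results of these data known. All members may be named, and pathway genes in full up to 4 called ones per list. The results of 1 pathway list are not reported here beyond the total count. Fits without a library kept the same 13357 genes. Other steps used pandas 2.3.3, numpy 2.4.6 and matplotlib 3.10.9 under Python 3.11.15.

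Pools with the same number deviated from their tissue means together, with correlations of 0.259, 0.128 and 0.473 for numbers 1, 2 and 3 across genes, and the design text draws the organs of a sample from the same 10 mice. The main test has no block, and the fit with the pool number as a block is given where it changes a call. CB2 correlated better with AM1 (0.291), and AM3 lacked Y-linked reads where CB3 had 1292.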

Additional observations from a re-analysis of the deposited data

How the results depend on the processing

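Of the 9 called members, Gng8, Gnal, Gnat2 and Gng4 were called in all 13 alternatives, Gna14 and Gng11 in 12, Gnb3 in 10, Gna15 in 9 and Gnai2 in 7. Gng8, Gnat2 and Gna15 passed the filter only through the tissue where they were high. They had to differ, so their counts of alternatives are no separate support. Without single libraries, or without CB2 and AM3 together, 3 to 7 members were higher in the carotid body and 2 to 5 in the adrenal medulla. In the same fits pathway genes numbered 2 to 5 and 2 to 5, and 16.3% to 29.9% of all genes were called. Pathway genes higher in the carotid body numbered 3 with a pseudocount of 0.1 and 8 with the replicate block. Over all genes the carotid body calls there were 1849 and 2257, against 1896 in the main fit. Pathway genes higher in the adrenal medulla numbered 5 after quantile normalization and 5 without CB2 and AM3. Over all genes the adrenal medulla calls there were 1386 and 2067, against 1033 in the main fit. The cause was not tested. With the replicate block the calls of members numbered 7 for the carotid body and 5 for the adrenal medulla. Gng12, Gngt2 and Gnb5 were added, and no other member call changed. The block fit called 27% of all genes, against 21.9% in the main fit. Of the members that were not called, 4 changed sign. Over fits without libraries, Gnai3 ranged from -0.71 to 0.22 (0.0068 without CB1, 0.22 without AM1), Gnaz from -0.14 (without AM1) to 0.49, Gnaq from -0.36 to 0.23 (-0.095 without CB2, -0.19 without AM3, -0.36 without both) and Gng7 from -0.086 to 0.31 (-0.024 without CB1, -0.039 without CB3, -0.086 without AM1). Gng7 was also at -0.0037 under median-ratio scaling and -0.12 after quantile normalization. Limma voom on the recovered reads, scaled to total reads, called 5 and 4 members; it was chosen after seeing the data in place of the planned version with TMM factors, which was not run. At low level depth limits precision: Gna15 rests on 159 and 45 reads, Gng8 on 328 and 37, and Gnat2 on 30 and 363.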
